A study of Mus musculus with 2 samples.

Results

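The widened pairs described here are places where H2A.Z carrying arginines in its C-terminal tail (K3R3) gave an enriched region at least 2 times as wide as the region that wild-type H2A.Z gave at the same place. A pair was 1 wild-type and 1 K3R3 region of the looser region lists (threshold 1e-09) that overlapped each other by at least 1 bp and overlapped no other region of those lists. Only the 17 autosomes other than 6 and 8 were used. Of 65930 such pairs on these chromosomes 5473 were widened, which is 8.3% (95% Wilson interval 8.09 to 8.51). The whole data set held 77087 such pairs. These pairs were chosen by the widths measured in both libraries, so widths, gains and ratios are given as a description, with no test.

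H2A.Z is a histone variant, a relative of H2A that remodelling complexes place into nucleosomes, above all beside transcription start sites and at enhancers. Its C-terminal lysines can carry a single ubiquitin, which the Polycomb complex PRC1 is known to attach. In embryonic stem cells the ubiquitylated form is known from the promoters of silent developmental genes that carry both activating and repressive histone marks. The width of an enriched region is the distance from its listed start to its listed end. How the region caller set these ends is not known. The lists give no height for a region, so its extent is the only quantity compared here.

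Chromatin immunoprecipitation and sequencing were done on mouse embryonic stem cells of 2 lines, 1 library each. Per the labels' protocols, one line expressed H2A.Z-YFP and the other H2A.Z.K3R3-YFP, in which 3 lysines of the C-terminal tail (K119, K120 and K123) are arginines. Both transgenes were delivered by lentivirus into KH2 embryonic stem cells, sat behind a CMV promoter under doxycycline control (rtTA), and were induced with 1 µg/ml doxycycline before YFP-positive cells were sorted. Endogenous H2A.Z was targeted in both lines with short hairpins directed at its 3′ UTR. The labels give the strain of both samples as V6.5, a cross of 129SvJae and C57BL/6, and the antibody as Abcam Ab290, which is directed against GFP and also binds YFP. The tagged histones were thus expressed from a viral promoter, beside what endogenous protein the hairpins left, and the labels do not say whether a line is a single clone. With 1 library per line there was no replicate check, and differences between the libraries cannot be told apart from differences between the lines. The files hold no expression values, so the cell type could not be checked against markers.

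The looser lists held 99812 wild-type and 114028 K3R3 regions, of which 82835 and 99976 lay on the chromosomes used. Every coordinate in all 4 lists was a multiple of 25 bp, and neighbouring regions of a list were at least 225 bp apart. Read depth is unknown, so no value was adjusted for it and intervals cover counting error only, treating regions as independent.

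The widened pairs were mostly narrow places. Their wild-type regions had a median width of 100 bp (quartiles 50 and 200 bp, range 25 to 1575 bp). Their K3R3 regions had a median of 275 bp (quartiles 200 and 575 bp, range 50 to 4675 bp). Among the 58270 pairs with a ratio between 0.5 and 2, wild-type regions had a median of 400 bp and K3R3 regions of 425 bp. The wild-type region was narrower than 200 bp, the lower bound of the fragment size selection, in 4011 widened pairs (73.3%, 72.1 to 74.4), and in 961 (17.6%) it was a single step of 25 bp.

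The gain was correspondingly small in most pairs. K3R3 exceeded the wild type by a median of 175 bp, with quartiles of 125 and 375 bp and a highest value of 3550 bp. The gain was at most 100 bp in 1157 pairs (21.1%), at least 500 bp in 850 (15.5%, 14.6 to 16.5) and at least 1000 bp in 133 (2.43%, 2.05 to 2.87). The median ratio was 2.75. It was below 3 in 2909 pairs (53.2%), from 3 to under 5 in 1425, from 5 to under 10 in 912 and at least 10 in 227 (4.15%). Broad K3R3 regions of at least 1000 bp made up 435 of the widened pairs (7.95%), and those of at least 2000 bp numbered 35. The gains of the widened pairs summed to 1543325 bp, which was 37.3% of all bp gained by K3R3 over the single-partner pairs in which it was wider.

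**Figure D1:**
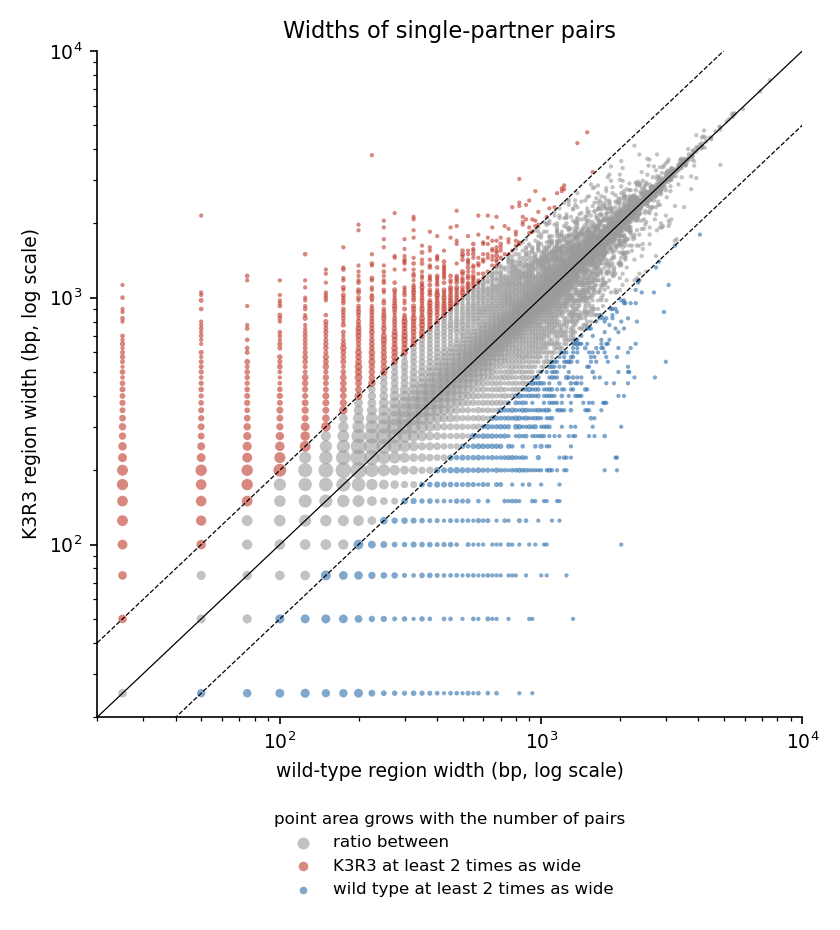
Width of the wild-type region (x axis, bp, log scale) against width of the K3R3 region (y axis, bp, log scale) in 65930 single-partner pairs. Point area grows with the number of pairs at a given pair of widths, the solid line marks equal widths and the dashed lines a ratio of 2 either way. Red points, the 5473 widened pairs, crowd at wild-type widths under 200 bp.

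The reverse case, a wild-type region at least 2 times as wide as its K3R3 partner, occurred in 2187 of the same 65930 pairs (3.32%, 3.18 to 3.46), so widened pairs were 2.50 times as frequent. The reverse pairs had a median ratio of wider to narrower region of 2.75 and a median difference of 200 bp. The wider region reached past the narrower at both ends in 68.4% of them (66.4 to 70.3), less often than in widened pairs (79.6%, 78.5 to 80.6). At least 90% of the difference lay on 1 side in 46.3% against 33.1%. This last share varied with the size of the difference. It was 22.3% against 12.3% at 100 to 175 bp and 49.9% against 35.5% at 200 to 375 bp. At 400 to 775 bp it was 60.4% against 59.3%, and at 800 bp or more 73.7% against 73.3%. The libraries stand at unequal list lengths beside this count. When the K3R3 list was cut to the length of the wild-type list, widest regions first, 4726 pairs were widened and the ratio was 5.00. That cut drops the narrowest K3R3 regions, the partners of many reverse pairs, so it raises the ratio by construction and does not show the effect of list length. When the stricter K3R3 list was set against the looser wild-type list, 3273 pairs were widened against 4182 reverse pairs, and the order turned. Setting the stricter list of one library against the looser of the other narrows that library's regions by construction.

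How often a pair was widened fell steeply with the width of the wild-type region. That width is the denominator of the ratio, so wider regions need a larger gain and part of this fall is set by the rule. Of 3096 pairs with a wild-type region of 25 to 75 bp, 2477 were widened (80.0%, 78.6 to 81.4). The share was 16.8% (16.0 to 17.6) from 100 to 175 bp and 5.04% (4.76 to 5.33) from 200 to 375 bp. It was 1.69% (1.51 to 1.89) from 400 to 775 bp and 0.307% (0.224 to 0.422) from 800 to 1975 bp. None of the 1160 pairs with a wild-type region of at least 2000 bp was widened, a count of 0 that allows a share of up to 0.259%.

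Very narrow regions mostly had a wider partner in the other library, whichever library they came from. Of the 1540 pairs with a K3R3 region of 25 to 75 bp, 64.0% were reverse pairs and 6.17% were widened. Classed by K3R3 width, widened pairs made up 18.4% (17.5 to 19.4) of pairs from 100 to 175 bp and 8.80% from 200 to 375 bp. They made up 6.60% from 400 to 775 bp, 5.64% (5.26 to 6.06) from 800 to 1975 bp and 2.84% (2.05 to 3.93) at 2000 bp or more. Reverse pairs fell from 6.80% to 2.18%, 1.02% and 0.255% over the first 4 of these classes, and numbered 0 of 1232 in the last, which allows up to 0.244%. When both regions of a pair had to be at least 200 bp wide, 1462 widened and 760 reverse pairs were left, a ratio of 1.92. With that limit on the wild-type region alone, which leaves the narrow K3R3 regions of reverse pairs in, there were 1462 against 1546 and the order turned.

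**Figure D2:**
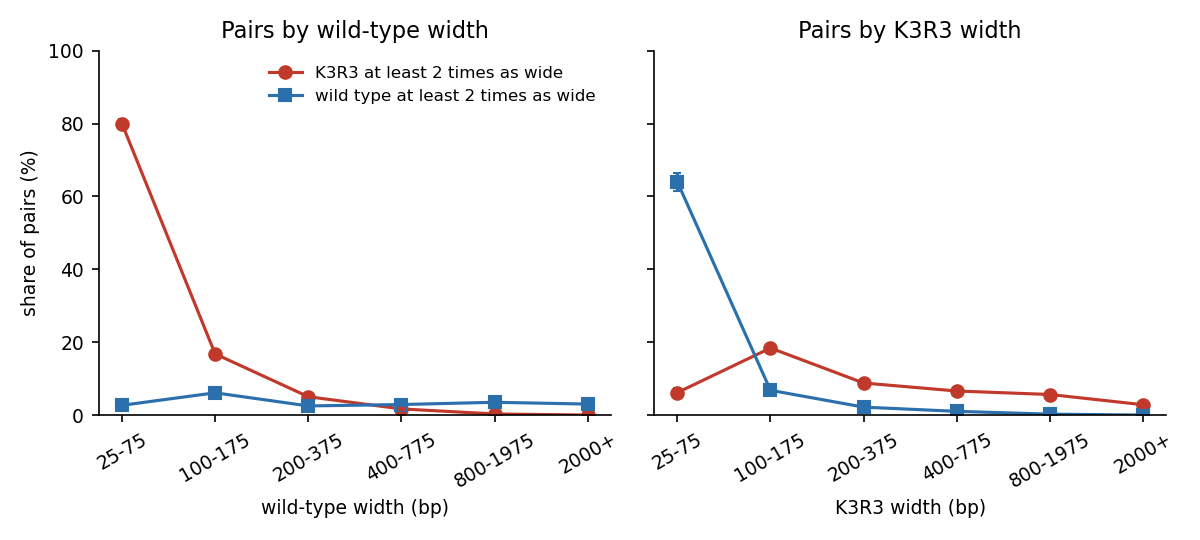
Share of single-partner pairs (y axis, %) that were at least 2 times as wide in K3R3 (red circles) or in the wild type (blue squares), by wild-type width (left) and by K3R3 width (right), in bp. Bars are 95% Wilson intervals. Narrow regions of either library had the highest share of wider partners, 80.0% for wild-type and 64.0% for K3R3 regions of 25 to 75 bp. Part of the fall with width is set by the rule, since a wider region needs a larger difference.

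The threshold of 2 fell where the 25 bp grid is coarse. In 942 widened pairs (17.2%) the ratio was exactly 2. The 1032 pairs with a ratio from 2 to under 2.1 had a median wild-type width of 125 bp and a median gain of 125 bp. The 153 pairs just outside, from 1.9 to under 2, had medians of 375 and 350 bp, since on this grid such a ratio needs a wild-type region of at least 250 bp.

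The added length was divided evenly between the left and right ends. The K3R3 region reached past the wild-type region at both ends in 4354 widened pairs (79.6%, 78.5 to 80.6), on the left alone, towards lower coordinates, in 569 (10.4%) and on the right alone in 550 (10.0%). Left ends gained 774350 bp in all and right ends 778325 bp, so 49.9% of the added length lay on the left. The left gain was the larger in 2518 pairs, the right gain in 2407, and they were equal in 548. Left and right are coordinate directions, since no strand or gene was assigned to a region. In 95.5% of widened pairs the wild-type region lay wholly inside the K3R3 region.

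Above the smallest gains, the larger the gain of a pair, the more often it was lopsided, with at least 90% of it on 1 side, in part by construction. Over all widened pairs the longer gain had a median of 125 bp, the shorter of 50 bp, and the midpoint moved by a median of 37.5 bp. In 2036 pairs (37.2%) both sides gained and the longer gain was at most 2 times the shorter. In 1809 (33.1%) at least 90% of the gain lay on 1 side. Of the 482 pairs with the smallest gains, 25 to 75 bp, 48.3% were balanced in this sense and 51.7% lay at least 90% on 1 side. Of the 2396 that gained 100 to 175 bp, 54.5% were balanced and 12.3% lopsided. The lopsided share was 35.5% at gains of 200 to 375 bp, 59.3% at 400 to 775 bp and 73.3% of 281 pairs at 800 bp or more. On the 25 bp grid a small gain shared by both ends cannot lie 90% on 1 side. A larger gain can, so part of this rise is set by the measure. From gains of 100 bp upwards the share grown at both ends changed less, from 87.7% to 80.4%, 75.2% and 74.7%.

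Balanced and lopsided pairs also differed in wild-type width. With a wild-type region of 25 to 75 bp, 51.6% of widened pairs were balanced and 19.98% lopsided. From 200 to 375 bp these shares were 7.04% and 64.6% of 1122 pairs, and from 400 to 775 bp 8.94% and 69.2% of 302 pairs. Narrow wild-type regions thus mostly sat inside a modestly wider K3R3 region. With wider ones the gain mostly lay on 1 side, though the K3R3 region usually still reached past both ends. It did so in 68.8% of widened pairs from 200 to 375 bp and in 70.9% from 400 to 775 bp. Median gains at wild-type widths of 25 to 75, 200 to 375 and 400 to 775 bp were 125, 400 and 650 bp. The limit of the measure at small gains thus applies here too. The lopsided share of reverse pairs was likewise high at the smallest differences (55.6%). It rose from 22.3% at 100 to 175 bp to 73.7% at 800 bp or more, so this shape was not seen in widened pairs alone. The same limit of the measure applies to reverse pairs. Between these classes, the share in which the wider region reached past both ends went from 77.7% to 67.4%.

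**Figure D3:**
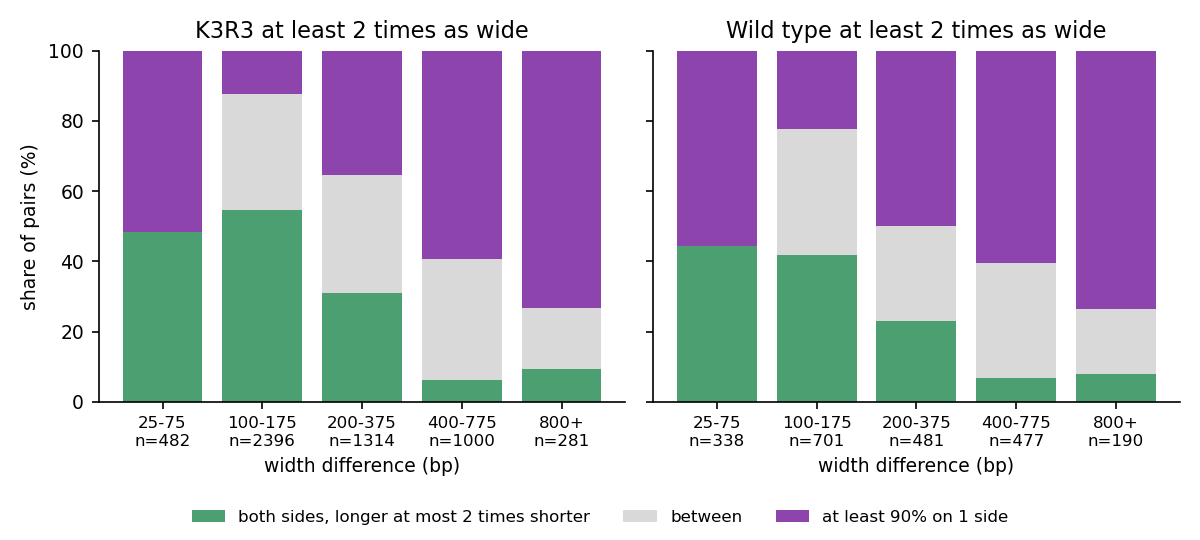
How the width difference was divided between the sides of a pair, by size of the difference (x axis, bp, with the number of pairs under each bar), as shares of pairs (y axis, %). Green marks gains on both sides with the longer at most 2 times the shorter, purple at least 90% on 1 side and grey the rest. Purple grows with the difference from 100 bp upwards in widened pairs (left) and in reverse pairs (right), reaching 73.3% and 73.7%. A small difference shared by both ends cannot be purple on the 25 bp grid, so part of this rise is set by the measure.

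The stricter lists (threshold 1e-12) gave a ratio for a minority of the widened pairs. Exactly 1 region of each library, overlapping each other, lay over 2391 of the 5473 pairs (43.7%, 42.4 to 45.0), against 92.3% of the pairs with a ratio between 0.5 and 2. Over 2363 (43.2%, 41.9 to 44.5) only K3R3 had a stricter region, over 33 (0.603%) only the wild type, and over 327 (5.97%) neither. A further 315 (5.76%) held several regions of a library and 44 held 1 of each that did not overlap. The loss of the wild-type region went with its width. Only K3R3 kept a region at 76.7% of pairs with a wild-type region of 25 to 75 bp, at 28.7% from 100 to 175 bp and at 1.57% from 200 bp.

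Where a stricter ratio could be formed, it was usually again at least 2. This held for 1938 of 2391 pairs (81.1%, 79.4 to 82.6), which is 35.4% of all widened pairs, and the median stricter ratio was 2.75 (quartiles 2.09 and 4.50) where the looser ratio had a median of 2.40. The stricter K3R3 region was the narrower of the pair in 38 of the 2391. Median stricter widths were 125 bp (wild type) and 325 bp (K3R3), down from 175 and 500 bp in the looser lists. With a wild-type region of at least 200 bp the share was 70.9% (68.2 to 73.4) of 1169 pairs, with a median ratio of 2.35. Among pairs with a looser ratio between 0.5 and 2, 4.54% had a stricter ratio of at least 2. Reverse pairs behaved much as widened pairs did. They had 1 stricter region of each library in 39.5%, a wild-type region alone in 43.2%, and a stricter ratio of at most 0.5 in 79.8% of 863.

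Both thresholds were applied to the same reads, so the stricter lists are no second measurement. Applied to the stricter lists by itself, the rule gave 5704 widened pairs, 8.8% of 64793, and 2629 reverse pairs (4.06%). The K3R3 regions of 2004 of these (35.1%) overlapped that of a widened pair of the looser lists, and 2002 of the 5473 (36.6%) were met in this way. Similar numbers of pairs passed the rule at either threshold, and most of either set were not met by the other.

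**Figure D4:**
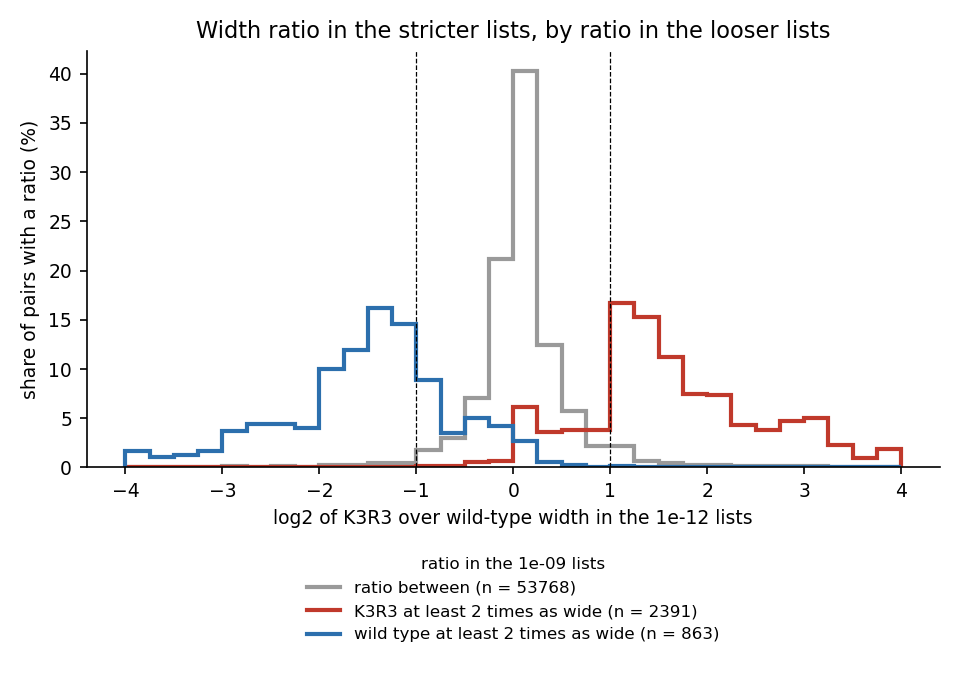
Log2 of the K3R3 over the wild-type width in the stricter lists (x axis, bins of 0.25, values beyond 4 either way in the end bins) for pairs classed by their ratio in the looser lists, as shares of pairs that had a stricter ratio (y axis, %). Red are widened pairs, blue reverse pairs and grey the rest, and dashed lines mark a ratio of 2 either way. Of the 2391 widened pairs with a stricter ratio, 81.1% lie at or right of the right-hand line.

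The added stretches, the parts of the K3R3 regions outside their wild-type partners, held few wild-type regions at the stricter threshold either. They summed to 1552675 bp, of which the stricter K3R3 list covered 65.4% and the stricter wild-type list 1.04%. By definition the looser K3R3 list covered these stretches and the looser wild-type list did not. All lists of a library come from the same reads, so this contrast is largely set by the choice of stretches. The mirror value for reverse pairs is not given. In 3813 widened pairs (69.7%, 68.4 to 70.9) the stricter K3R3 list covered at least 50% of the added stretch and the stricter wild-type list none of it. In 644 (11.8%) neither stricter list covered any of it, and in 934 (17.1%) K3R3 covered less than 50% and the wild type none.

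In 82 widened pairs (1.498%) the stricter wild-type list did reach into the added stretch, although the looser one by definition did not. This was concentrated in the large gains, with 71 of 850 pairs (8.35%, 6.68 to 10.4) that gained at least 500 bp and 16 of 133 (12.03%, 7.54 to 18.6) that gained at least 1000 bp, against 11 of 4623 (0.238%) below 500 bp. Neighbouring regions of a list lay at least 225 bp apart, so a short added stretch has little room for a further region. Part of this contrast is thus set by the length of the stretch. In these pairs part of the added stretch lay in stricter wild-type regions that the looser list lacks. The stricter list of a library was thus not nested in its looser list. These wild-type regions covered 16200 of the 1552675 bp added over all widened pairs. How far the widening depends on their absence from the looser list was not tested. Absence from a looser list therefore does not by itself show that signal was below its threshold. When both lists of each library were merged before pairing, 6615 of 70435 pairs were widened (9.39%), 2.50 times the number of reverse pairs.

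The places with the 5 largest gains differed in what the stricter lists held. On chromosome 19 the wild-type region was 225 bp long (chr19:3435801-3436025) and the K3R3 region 3775 bp (chr19:3435751-3439525), with 3500 of the 3550 bp gained on the right. The stricter K3R3 list split it into regions of 275 and 3250 bp, and the stricter wild-type list kept 200 bp and nothing beyond. The widening at this place was present in both lists.

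On chromosome 4 a wild-type width of 1500 bp (chr4:106764076-106765575) stood against 4675 bp for K3R3 (chr4:106763576-106768250). At the stricter threshold K3R3 shrank to 1975 bp, and the wild type held 1450 bp and a separate region of 275 bp inside the added stretch, a total ratio of 1.36. On chromosome 2 they were 1375 bp (chr2:180023551-180024925) and 4225 bp (chr2:180022801-180027025), and in the stricter lists 1375 and 1325 bp. At both places the stricter lists gave a ratio below 2.

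A wild-type region of 825 bp on chromosome 5 (chr5:113054401-113055225) lay at the left end of a K3R3 region of 3025 bp (chr5:113054351-113057375). In the stricter lists they were 825 and 3000 bp, a ratio of 3.64, and the next wild-type region of the looser list to the right lay 11950 bp away. On chromosome 3 the wild type had 50 bp (chr3:89294226-89294275) where K3R3 had 2150 bp (chr3:89294176-89296325), a ratio of 43. The stricter lists held K3R3 regions of 975 and 925 bp there and no wild-type region. These places kept their extra K3R3 stretch at the stricter threshold, 98.9% and 88.1% of it.

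**Figure D5:**
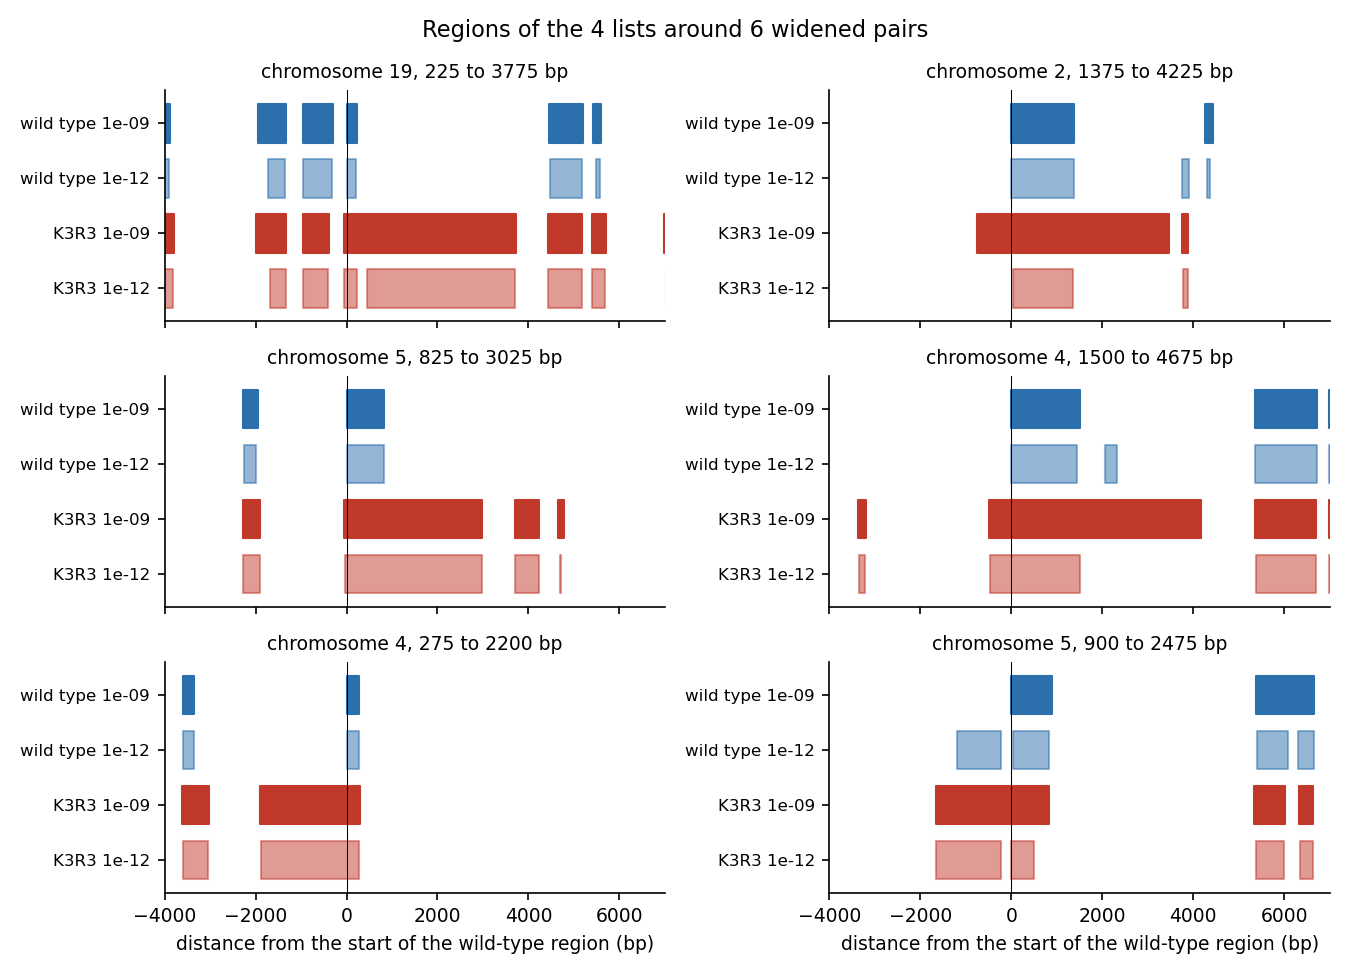
Regions of the 4 lists (rows, blue for the wild type and red for K3R3, paler for the stricter lists) around 6 widened pairs, by distance from the start of the paired wild-type region (x axis, bp). In the left column the extra K3R3 stretch is present at both thresholds. In the right column it is absent from the stricter K3R3 list (chromosome 2), mostly absent with 15.0% covered (chromosome 4), or the stricter wild-type list fills part of it (chromosome 5, bottom).

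Of pairs that grew on the left alone, those with the largest gains all had stricter wild-type regions in the added stretch. On chromosome 5 the wild type had 900 bp (chr5:118824976-118825875) and K3R3 2475 bp (chr5:118823326-118825800), but a stricter wild-type region of 975 bp covered 59.1% of the added stretch. On chromosome 7 the widths were 825 bp (chr7:146263001-146263825) and 2350 bp (chr7:146261426-146263775), with 49.2% of the added stretch in a stricter wild-type region of 775 bp. On chromosome 2 they were 1225 bp (chr2:26155276-26156500) and 2750 bp (chr2:26153751-26156500), with 13.1% covered.

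Of pairs that grew on the right alone, those with the largest gains had none. On chromosome 12 the wild type had 200 bp (chr12:113866001-113866200) and K3R3 1975 bp (chr12:113866026-113868000), and the stricter K3R3 list covered 86.1% of the added stretch. On chromosome 15 the widths were 325 bp (chr15:75525951-75526275) and 1875 bp (chr15:75526001-75527875), and 225 and 1825 bp in the stricter lists. On chromosome 10 they were 1575 bp (chr10:79041351-79042925) and 3225 bp (chr10:79041351-79044575), but 1575 and 1600 bp in the stricter lists.

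Among pairs with exactly 1 overlapping stricter region of each library, a stricter ratio of at least 2 and no stricter wild-type region over the added stretch, the largest gains after the chromosome 5 pair above lay on chromosome 4. One had a wild-type region of 275 bp (chr4:154762976-154763250) and a K3R3 region of 2200 bp (chr4:154761076-154763275), and the stricter lists gave 275 and 2150 bp. The other had 200 bp (chr4:106298976-106299175) and 1875 bp (chr4:106297326-106299200), and 175 and 1450 bp in the stricter lists. In all, 1931 widened pairs (35.3%) met these conditions, among them 421 of the 850 (49.5%) that gained at least 500 bp.

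Widened pairs lay on all 17 autosomes at shares within a narrow range, though the intervals of the lowest and the highest did not overlap. Their share of single-partner pairs ran from 7.41% (6.77 to 8.11) on chromosome 11 (435 pairs) to 9.33% (8.34 to 10.4) on chromosome 12 (281 pairs), with a median of 8.24%. Chromosome 2 held the most (512) and chromosome 18 the fewest (172). They outnumbered reverse pairs on each of the 17, by 2.13 times on chromosome 7 to 3.01 times on chromosome 16. Over 218 windows of 10 Mb with at least 50 pairs the share ran from 3.35% to 17.5% (median 8.11%, SD 2.32 over windows). Widened pairs were the more numerous in 212 of these windows, reverse pairs in 2, and 4 were even.

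The windows with the highest shares lay on chromosomes 14 and 17. On chromosome 14 between 10 and 20 Mb 17 of 97 pairs were widened (17.5%, 11.2 to 26.3) and 1 was a reverse pair. On chromosome 17 the first 10 Mb had 39 of 241 (16.2%, 12.1 to 21.4) and the next 10 Mb 32 of 216 (14.8%, 10.7 to 20.2). Wild-type regions under 200 bp made up 25.8% of the pairs in the chromosome 14 window and 30.3% and 26.9% in these windows of chromosome 17. The median of this share over the 17 autosomes was 18.5%. K3R3 also had more regions in these windows, 171 against 122, 408 against 303 and 369 against 257 in the looser lists. It had more over all chromosomes used as well, 99976 against 82835. The part of narrow regions and of region numbers in the higher share was not tested.

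The share hardly changed with how densely regions lay along the chromosome, but its make-up did. In the sparsest quartile of pairs, in 1 Mb bins with up to 89 regions of both libraries, 8.41% (7.996 to 8.84) were widened, and in the densest, with 252 to 492 regions, 8.06% (7.66 to 8.49). Wild-type regions under 200 bp, the ones most often widened, made up 24.0% of pairs in the sparsest and 13.9% in the densest quartile. Among pairs with a wild-type region of at least 200 bp the widened share rose from 1.82% (1.598 to 2.07) to 3.69% (3.40 to 4.02). The share of reverse pairs among these rose as well, from 2.58% to 3.54%.

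The larger widened pairs had close neighbours. The nearest other region of either library lay a median of 1825 bp from a widened pair, against 1700 bp for pairs with a ratio between 0.5 and 2. With a wild-type region of at least 200 bp the medians were 1150 and 1600 bp. Of these widened pairs 46.5% (44.0 to 49.1) had another region within 1000 bp, against 39.4% (39.0 to 39.8), and 7.25% against 14.7% had none within 10 kb. They had a mean of 3.66 other K3R3 regions and 2.88 other wild-type regions within 10 kb, against 2.88 and 2.50. Reverse pairs with a wild-type region of at least 200 bp had a median of 1775 bp, 39.9% with another region within 1000 bp and 19.1% with none within 10 kb. In reverse pairs this limit falls on the wider region, so they are no mirror image of the widened pairs above.

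Widened pairs lay next to each other more often than other pairs lay next to them, and so did reverse pairs. Where another single-partner pair lay within 10 kb, the nearest was itself widened for 479 of 3927 widened pairs (12.2%, 11.2 to 13.3), against 3397 of 42672 pairs with a ratio between 0.5 and 2 (7.96%, 7.71 to 8.22). Next to a reverse pair the nearest was widened in 5.53% (4.48 to 6.80). The nearest pair was a reverse pair for 6.06% of reverse pairs, against 3.13% of pairs with a ratio between 0.5 and 2 and 2.22% of widened pairs. Most widened pairs still stood alone, with 4522 having no other within 10 kb, while 951 (17.4%) lay in runs with steps of up to 10 kb, 387 of them runs of 2 and 56 of 3 or more.

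The longest runs held 5 widened pairs. On chromosome 11 (chr11:95096176-95106300) 5 of 6 single-partner pairs were widened. Their widths, in order along the chromosome and given as wild type then K3R3, were 100 and 225 bp, 700 and 1600 bp, 375 and 750 bp, 125 and 350 bp, and 75 and 300 bp. On chromosome 19 (chr19:3423751-3443100) 5 of 12 were widened, among them the largest gain of all, and the 12 had a median ratio of 1.73. The other 4 on chromosome 19 went from 375 to 775 bp, 175 to 700 bp, 450 to 950 bp and 50 to 325 bp. Neither run held a reverse pair. On chromosome 10 (chr10:76140726-76146475) all 4 single-partner pairs within 5750 bp were widened, with wild-type widths of 50 to 275 bp and K3R3 widths of 200 to 600 bp. Other runs of 4 widened pairs held 5 single-partner pairs (chromosome 4) or 6 and 5 (chromosome 15). A run starts and ends at a widened pair, so the share of widened pairs within it is high by construction.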

How the data were processed

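Regions enriched for YFP-tagged H2A.Z were compared between 1 wild-type and 1 K3R3 library. Groups come from the sample titles. The authors deposited 2 lists per library, called at 1e-09 and 1e-12 per the file headers. They hold only chromosome, start and end, with no count, score or p-value. Bowtie 0.12.3, bedtools and build mm9 are named per the submitters' processing notes. The sources used here do not give the region caller, its filters or its control. Each list came from 1 library.

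Pairs were formed with Python 3.11.15, numpy 2.4.6, pandas 2.3.3 and scipy 1.17.1 and drawn with matplotlib 3.10.9. The pairing was checked against bedtools 2.31.1 and tested on simulated data. Coordinates are 1-based in mm9. The gene table at hand is of another build, so regions carry no gene annotation and no sequence is printed. Shares carry 95% Wilson intervals, and the limit for a count of 0 is 3 counts of the total. Read depth is unknown.

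The rule for the pairs, the comparisons and the lists of alternatives were chosen with earlier results of these data known. Places named are the 5 largest gains, the 3 largest gains on the left alone, on the right alone and on both sides, and the 3 largest with 1 stricter region of each library, a stricter ratio of at least 2 and no wild-type region over the added stretch. The longest runs and the windows with the highest shares were named after their values were seen. Alternatives changed the lists, the overlap, the ratio, the minimum width, the joining of neighbours, the list length and the chromosomes.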

Additional observations from a re-analysis of the deposited data

How the results depend on the processing

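No paired analysis was possible because there was a single library per group. Region lists give no depth, which bears on how many narrow regions are called. Over all alternatives the left share of the added length was 49.3% to 50.4%, and an overlap of 50% of the narrower region moved no result beyond its interval. A lower or higher ratio, a minimum width, a list shortened by width and unequal thresholds move these results by construction, and the cause of the other shifts was not tested. Merging both lists of each library, limiting both regions to 200 bp and setting the looser K3R3 against the stricter wild-type list were chosen after seeing the data. Results not named under an alternative stayed within their interval, or within 1.5 times for the number of widened pairs.

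With the stricter K3R3 against the looser wild-type list there were 3273 widened pairs (5.03% of pairs, 71.4% grown at both ends, median gain 150 bp), and they were 0.783 times as many as reverse pairs. With the looser K3R3 against the stricter wild-type list these values were 8374, 13.2%, 86.7%, 200 bp and 7.10 times. A ratio of at least 1.5 gave 10021 widened pairs, 15.2%, 76.0% and 150 bp, and 53.6% had a stricter ratio of at least 2. A ratio of at least 3 gave 2564, 3.89%, 84.4%, 200 bp and 87.7%. A wild-type region of at least 200 bp gave 1462, 2.72%, 69.4%, 450 bp, 70.9% and 0.946 times the reverse pairs. With both regions of at least 200 bp there were 1462, 2.83%, 69.4%, 450 bp, 70.9% and 1.92 times. The stricter lists of both libraries gave a share of 8.80%, 80.9% grown at both ends and 2.17 times the reverse pairs. Joining regions within 500 bp gave 10.5%, 75.5%, a median gain of 325 bp and 71.6% with a stricter ratio of at least 2. The shortened K3R3 list gave 7.74%, 82.5%, 200 bp and 5.00 times the reverse pairs. All chromosomes gave 7.50% and 1.74 times. Both lists of each library together gave 9.39%, 81.2% grown at both ends and 82.7% with a stricter ratio of at least 2. Total widths of the stricter regions gave 78.5% for the latter.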

Other observations

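On the chromosomes that the rule leaves out, the balance of widened and reverse pairs was another one. On chromosome 6 only 103 of 4869 single-partner pairs were at least 2 times as wide in K3R3 (2.12%, 95% Wilson interval 1.75 to 2.56), and 474 (9.74%) were at least 2 times as wide in the wild type. On chromosome 8 these counts were 96 (1.897%, 1.56 to 2.31) and 579 (11.4%) of 5060. On X, 108 of 1228 pairs were at least 2 times as wide in K3R3 (8.79%, 7.34 to 10.5) and 91 (7.41%) in the wild type. The share of widened pairs on X was thus within the range of the autosomes used, while that of reverse pairs was above their highest, 3.83% on chromosome 4.

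Widened pairs that gained at least 90% on 1 side had the next wild-type region at a median of 5375 bp beyond the grown edge and 5750 bp beyond the other edge. It lay within 1000 bp beyond the grown edge in 281 of the 1808 such pairs with a wild-type neighbour on each side (15.5%, 13.9 to 17.3) and within 1000 bp beyond the other edge in 327 (18.1%, 16.4 to 19.9). A K3R3 region that reached a second wild-type region is no single-partner pair, which lowers the share beyond the grown edge by construction.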
